A study of Mus musculus with 6 samples.

Results

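The genes examined are signals of the stromal niche of the mouse colon, namely the R-spondins Rspo1, Rspo2 and Rspo3, the Wnt ligands Wnt2b and Wnt5a, the bone morphogenetic proteins Bmp4 and Bmp5, the BMP antagonist Grem1 and the transcription factor gene Foxl1. They were taken by name as secreted signals and antagonists of the mesenchyme together with a factor of telocytes, and all 9 were found among the 24517 genes of the count tables. RNA of the colon was sequenced in 3 NSD2fl/fl libraries, from mice with a floxed and intact Nsd2 gene, and 3 NSD2∆IE libraries, from mice in which Cre recombinase under the Villin promoter had removed the gene from the intestinal epithelium. Nsd2 encodes a histone methyltransferase. The mice were on a C57BL/6J background, and the labels give 16 weeks of HFCD, a high-fat cholesterol diet, for both groups. The text of the study gives a longer feeding period for the sequenced mice. The comparison asks how the niche genes of the tissue differed when the epithelium had lost NSD2, and the values are mixtures over all cells of the tissue.

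The epithelium of the colon is renewed from stem cells at the base of the crypts. WNT proteins keep these stem cells dividing, and R-spondins bind LGR receptors and raise the sensitivity of a cell to WNT. BMP proteins act in the opposite sense towards the top of the crypt and favour differentiation, and GREM1, made by fibroblasts and muscle below the crypt base, binds BMP proteins and keeps them from the stem cells. FOXL1 marks telocytes, large PDGFRA-positive cells that lie against the epithelium and are a known source of WNT5A and BMP ligands.

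Library totals lay between 38041832 and 38604680 counts, so 3 counts corresponded to at most 0.0848 CPM (counts scaled to library size, with TMM factors). The targeted gene Nsd2 had 1840 to 2455 counts in the NSD2fl/fl libraries and 914 to 1139 counts in the NSD2∆IE libraries. The groups also differed in the genes of the sex chromosomes. Xist had at most 4 counts in each NSD2fl/fl library and at least 21217 counts in each NSD2∆IE library, while 4 Y-linked genes together had at least 5058 counts in the former and at most 1 count in the latter. The methods describe male littermates, and no value below can separate this pattern from genotype (they cannot be told apart). Along the first principal component (51% of the variance) the libraries split across the genotypes, with NSD2fl/fl replicate 2 and NSD2∆IE replicates 2 and 3 on one side and the other 3 libraries on the other.

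Among the niche genes, Wnt2b, Rspo3 and Rspo2 were higher in every NSD2∆IE library than in any NSD2fl/fl library, by 1.68-fold, 1.62-fold and 2.87-fold. None of the 9 had an adjusted p under 0.05 with edgeR's quasi-likelihood test, a call that 0.0306% of the 16347 genes tested received, and 3 had an unadjusted p under 0.05. The 5 genes that received the call were all among the 6 used to check the labels, namely Nsd2 and the genes of the sex chromosomes above. The threshold of the study, which asks for an unadjusted p under 0.05 and a log2 fold change above 0.322 in size, was passed by 3 niche genes in the higher direction and by 0 in the lower direction. Over all genes tested the shares were 8.05% higher and 2.21% lower. Groups that did not overlap were likewise found for 3 of the 9 genes, all higher, against 11.4% of all genes higher and 7.28% lower. The 6 other niche genes overlapped between the groups, with fitted log2 fold changes between -0.12 and 0.29. The median log2 fold change of the 9 genes was 0.24, beside -0.041 over all genes tested. All 9 passed the filter on low counts, which does not require reads in both groups. Rspo2 had counts of 19, 9 and 7 in NSD2fl/fl and of 25, 34 and 52 in NSD2∆IE. Passing the filter therefore does not show that its NSD2fl/fl level was well measured.

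**Figure D1:**
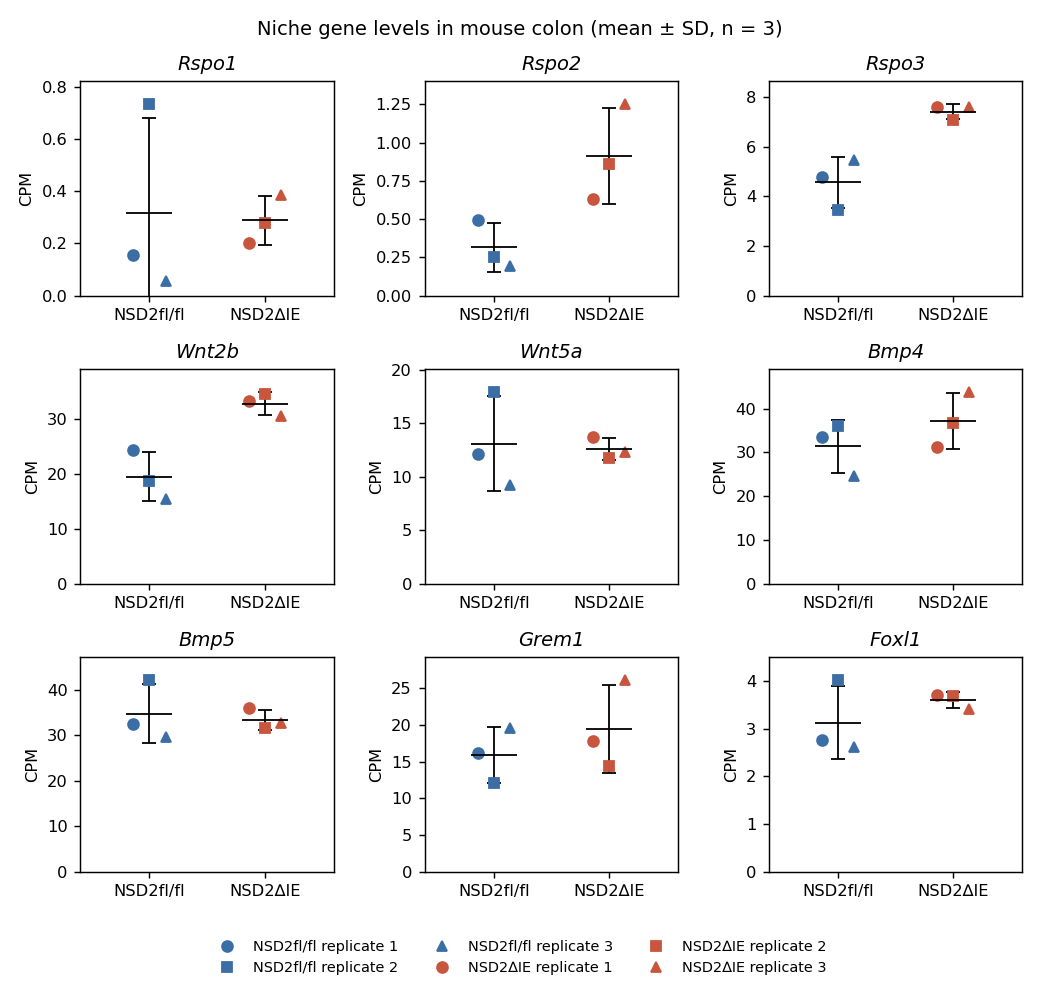
Level of each niche gene in CPM (TMM-scaled, linear axis from 0) in the 3 NSD2fl/fl libraries (blue) and the 3 NSD2∆IE libraries (red), with the replicate number as the symbol and bars for the mean ± SD, of which that of Rspo1 in NSD2fl/fl is cut at 0. Rspo2, Rspo3 and Wnt2b have no overlap between the groups, and the other 6 genes overlap.

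Levels of different genes can be set side by side only per length, and the deposited FPKM values (reads scaled to gene length and library size) were used for this. Bmp4 was the most abundant niche gene, with a mean of 16.8 FPKM over the 6 libraries and a range of 11.2 to 22.9. Grem1 followed with 10.9 FPKM, Bmp5 with 8.90 FPKM and Wnt2b with 7.42 FPKM. A lower group was formed by Rspo3 (2.53 FPKM), Wnt5a (1.31 FPKM) and Foxl1 (1.14 FPKM). Rspo1 (0.161 FPKM) and Rspo2 (0.0611 FPKM) were the lowest, with 2 to 26 and 7 to 52 counts per library.

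The steps from Wnt2b to Rspo3 and from Foxl1 to Rspo1 were larger than the spread, since the lowest value of the upper gene exceeded the highest value of the lower one. Every other neighbouring pair in this order had overlapping ranges over the libraries. Compared within each library by deposited FPKM, Bmp4 was above Grem1 and Rspo1 above Rspo2 in all 6. The other overlapping pairs kept the order in 5 of 6. The place of Grem1 depended on the gene length. The deposited FPKM implied 1639 bases for Grem1, whereas its exons in GENCODE M21 cover 4148 bases, and with the latter its mean was 4.31 FPKM and it ranked 4, below Bmp5 (8.46 FPKM) and Wnt2b (6.31 FPKM). For Rspo2 the implied length was 10369 bases against 5112 in GENCODE, and it ranked 9 with either.

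**Figure D2:**
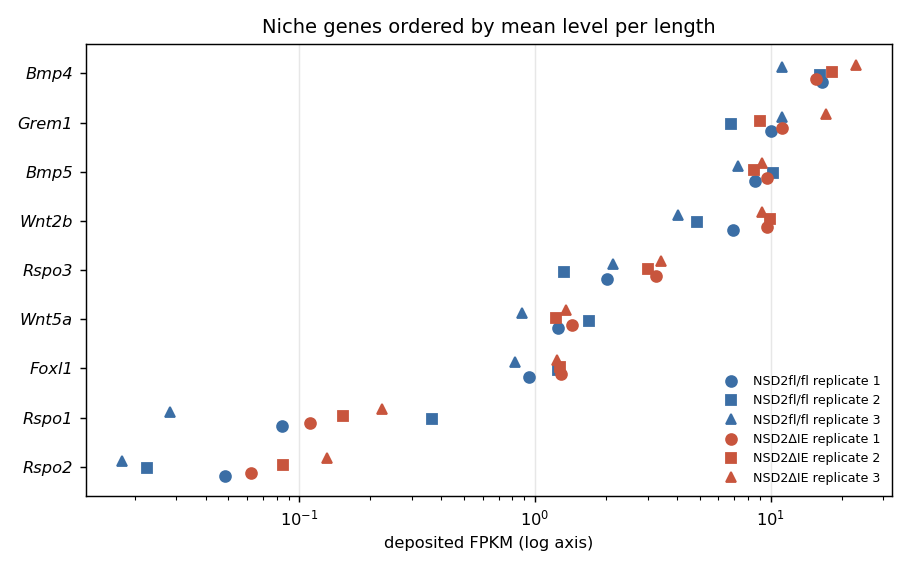
Deposited FPKM of the niche genes (log axis), ordered by the mean over 6 libraries, with the genotype as the colour and the replicate number as the symbol. The genes form 3 tiers, from Bmp4 to Wnt2b, from Rspo3 to Foxl1, and Rspo1 with Rspo2.

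The R-spondins were present at very different levels. Rspo3, the main R-spondin of the colonic mesenchyme, lies at chr10:29452416-29535867 on the minus strand (GENCODE M21, GRCm38, the assembly that mm10 denotes). It had 4.78, 3.45 and 5.48 CPM in NSD2fl/fl replicates 1 to 3 and 7.59, 7.07 and 7.59 CPM in NSD2∆IE replicates 1 to 3. All 3 NSD2∆IE libraries were above all NSD2fl/fl libraries, and they differed little from one another. The means were 4.57 ± 1.03 and 7.42 ± 0.305 CPM (SD, n = 3 each). On the log2 scale Rspo3 differed by 0.70 ± 0.217 (SE), with unadjusted p = 0.0152 and adjusted p = 0.333. The unadjusted p was under 0.05 in all 16 alternative fits, where the log2 fold change lay between 0.53 and 0.85.

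Rspo2, a close homolog of Rspo3, lies at chr15:43020794-43170826 on the minus strand. Few reads fell on it, with counts of 19, 9 and 7 for NSD2fl/fl and of 25, 34 and 52 for NSD2∆IE, or 0.493, 0.254 and 0.197 CPM against 0.631, 0.858 and 1.253 CPM. The groups did not overlap, although NSD2fl/fl replicate 1 and NSD2∆IE replicate 1 were separated by only 6 counts, and the highest NSD2∆IE value was found in replicate 3. The difference of 1.52 ± 0.492 (SE) on the log2 scale was the largest of the 9 genes, with unadjusted p = 0.0182 and adjusted p = 0.353. The unadjusted p was 0.0523 without NSD2fl/fl replicate 2, 0.0623 without NSD2fl/fl replicate 3 and 0.0761 without NSD2∆IE replicate 3, with log2 fold changes of 1.38, 1.28 and 1.23.

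Rspo1, at chr4:124986430-125009099 on the plus strand, encodes the family member first known as an intestinal mitogen. It had 6, 26 and 2 counts in NSD2fl/fl and 8, 11 and 16 counts in NSD2∆IE. The NSD2fl/fl group contained both the highest and the lowest value, and no difference could be detected at such counts (-0.12 ± 0.862 (SE) on the log2 scale, adjusted p = 0.968). The direction was not stable, since it turned in 7 of the 16 alternative fits, with values of 1.40 when NSD2fl/fl replicate 2 was left out and 0.092 when NSD2∆IE replicate 1 was left out. NSD2fl/fl replicate 2, which had the most Rspo1 counts, also had the highest summed level of 6 mesothelial markers (Msln, Upk3b and others), 11.2 CPM, against 2.08 to 3.58 CPM in the other 5 libraries. It was extreme in other lists too, with the highest epithelial sum (22040 CPM) and the lowest smooth muscle sum (1452 CPM). The part of any of these cells in the value was not tested.

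Of the Wnt ligands, Wnt2b was higher in NSD2∆IE and Wnt5a was not. Wnt2b, at chr3:104945272-104961921 on the minus strand, encodes a ligand of mesenchymal cells that acts through beta-catenin. It had 24.3, 18.8 and 15.4 CPM in NSD2fl/fl replicates 1 to 3 and 33.4, 34.6 and 30.5 CPM in NSD2∆IE replicates 1 to 3. Every NSD2∆IE library was above every NSD2fl/fl library. The means were 19.5 ± 4.50 and 32.8 ± 2.11 CPM (SD, n = 3 each), and the difference on the log2 scale was 0.75 ± 0.181 (SE). Its unadjusted p of 0.00462 was the smallest among the niche genes, with rank 239 of the 16347 genes tested, and its adjusted p was 0.302. DESeq2 gave an adjusted p of 0.0234 for Wnt2b, the only niche gene under 0.05 in any of the 16 alternatives, whose adjusted p-values for it ranged up to 0.99. DESeq2 called 466 of all genes tested, in place of 5.

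Wnt5a, at chr14:28504750-28527448 on the plus strand, encodes a ligand that acts mainly without beta-catenin and is a product of telocytes. Its levels were 12.1, 17.9 and 9.24 CPM in NSD2fl/fl and 13.7, 11.8 and 12.3 CPM in NSD2∆IE. All 3 NSD2∆IE values lay inside the range of the NSD2fl/fl values. On the log2 scale the difference was -0.05 ± 0.251 (SE, adjusted p = 0.948), and its sign changed with the scaling, to 0.018 with upper-quartile factors and 0.077 with library totals alone.

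**Figure D3:**
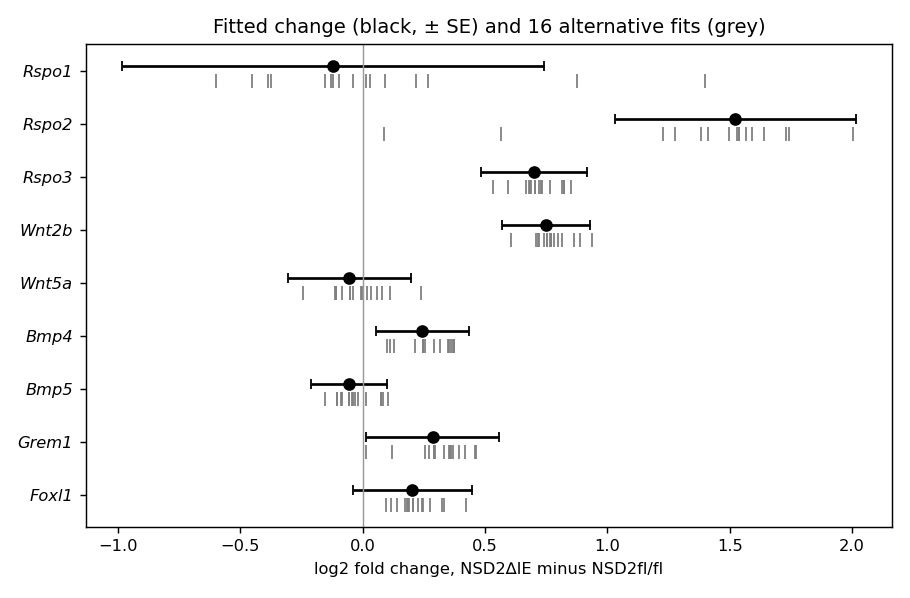
Log2 fold change (NSD2∆IE minus NSD2fl/fl) of each niche gene in edgeR, as a black point with the SE as the bar, and in each of 16 alternative fits, as grey ticks. Every tick of Rspo2, Rspo3, Wnt2b, Bmp4, Grem1 and Foxl1 is above 0, and the ticks of Rspo1, Wnt5a and Bmp5 lie on both sides of 0.

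The BMP ligands had the highest mean FPKM among the ligands of the set and did not pass either threshold. Bmp4, at chr14:46383520-46390669 on the minus strand, had 33.5, 36.0 and 24.6 CPM in NSD2fl/fl and 31.1, 36.6 and 43.8 CPM in NSD2∆IE. The lowest value was in NSD2fl/fl replicate 3 and the highest in NSD2∆IE replicate 3, and the remaining 4 libraries were interleaved. The difference was 0.24 ± 0.190 (SE) on the log2 scale (adjusted p = 0.676). Bmp5, at chr9:75775364-75900310 on the plus strand, had 32.5, 42.2 and 29.7 CPM in NSD2fl/fl and 36.0, 31.7 and 32.7 CPM in NSD2∆IE. It was the most even of the 9 genes, with a ratio of 1.40 between the highest and the lowest library (counts per library total). It differed by -0.06 ± 0.154 (SE) on the log2 scale (adjusted p = 0.911), and the sign also changed with the scaling, to 0.073 with library totals alone.

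Grem1, which encodes the secreted BMP antagonist of the crypt base, lies at chr2:113746164-113758646 on the minus strand. It had 16.2, 12.04 and 19.6 CPM in NSD2fl/fl and 17.8, 14.4 and 26.1 CPM in NSD2∆IE. Replicate 3 was the highest and replicate 2 the lowest in both groups, and the groups overlapped (0.29 ± 0.272 (SE) on the log2 scale, adjusted p = 0.729). Without NSD2∆IE replicate 3 the difference was 0.014. The balance of antagonist and ligand was examined as the log2 ratio of Grem1 to Bmp4 counts within each library, which does not depend on scaling between libraries. The ratio was -1.05, -1.58 and -0.33 in NSD2fl/fl and -0.81, -1.35 and -0.74 in NSD2∆IE. The group means were -0.99 ± 0.627 and -0.97 ± 0.330, and the difference of 0.02 had a p of 1 in an exact two-sided permutation test (3 against 3, for which the smallest possible p is 0.1).

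Foxl1, at chr8:121127940-121130644 on the plus strand, had 2.75, 4.01 and 2.61 CPM in NSD2fl/fl and 3.71, 3.68 and 3.40 CPM in NSD2∆IE. The NSD2∆IE libraries were close together and lay within the range of the controls. It differed by 0.20 ± 0.244 (SE) on the log2 scale (adjusted p = 0.786).

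The niche genes also differed in how they varied over the libraries. As a measure of likeness, the root mean square difference of mean-centred log2 CPM over the 6 libraries was computed for each pair. The smallest differences joined Wnt5a, Bmp5 and Foxl1 (0.131 for Wnt5a with Bmp5, 0.152 for Bmp5 with Foxl1 and 0.172 for Wnt5a with Foxl1). On the same scale Wnt5a, Bmp5 and Foxl1 themselves varied by 0.284, 0.163 and 0.226, and the other niche genes by 0.253 to 0.889. Genes that vary little give small differences whatever their pattern. These 3 genes were highest in NSD2fl/fl replicate 2 and lowest in NSD2fl/fl replicate 3. Rspo3 was nearest to Wnt2b (0.313), and Grem1 was nearest to Rspo3 (0.319). The 6 points of each comparison share the library, and no test was made.

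Genes outside the set with the most similar profile were sought by the same measure among 13271 tested genes of moderate level. For Wnt2b these were Nmnat2, which encodes an enzyme of NAD synthesis, at 0.0674, and Fmo2, a flavin monooxygenase gene, at 0.0811. Wnt2b itself varied by 0.433 on the same scale. Rspo2 was nearest to Cacna2d1, a calcium channel subunit gene (0.135), and to Prkcq (0.184). Rspo3 was nearest to Armcx2 (0.0926) and Gng4 (0.0966), Bmp4 to Idua (0.05) and Antxr2 (0.0658), and Grem1 to Syde2 (0.0966) and the immediate early gene Fos (0.124). For Wnt5a the nearest were Itpkc (0.0769) and Gtpbp2 (0.0774), for Bmp5 Nsmf (0.0222) and 1500015A07Rik (0.044), for Foxl1 Tmem82 (0.0492) and Slc25a33 (0.0684), and for Rspo1 D430001F17Rik (0.132) and 9130410C08Rik (0.298).

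The split along the first principal component went with the posterior Hox genes, whose summed level (7 genes) was 352 to 420 CPM in the libraries on one side and 24.7 to 67.1 CPM in those on the other. Posterior Hox genes mark the distal hindgut. Hoxb13 made most of the difference, with 310 to 365 CPM on one side and 0.706 to 26.2 CPM on the other, and the other 6 genes summed to 42.3 to 68.0 and 24.0 to 40.9 CPM. Within the side of 2 NSD2fl/fl libraries and 1 NSD2∆IE library, NSD2∆IE minus NSD2fl/fl on the log2 scale was 0.78 for Wnt2b, 0.57 for Rspo3 and 1.02 for Rspo2. Within the side of 1 and 2 libraries, it was 0.79, 1.09 and 2.03. For Wnt5a the differences were 0.38 and -0.57, for Bmp5 0.21 and -0.39, and for Grem1 -0.003 and 0.69. In a fit of all 6 libraries with this side as a covariate, the log2 fold changes of Wnt2b, Rspo3 and Rspo2 were 0.77, 0.82 and 1.41, with unadjusted p-values of 0.00567, 0.00698 and 0.0396.

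Markers of several cell types moved with the same comparison, in which 8.05% of all genes tested passed the study threshold higher and 2.21% lower. The summed level of 10 smooth muscle markers was 1452 to 4143 CPM in NSD2fl/fl and 5147 to 11010 CPM in NSD2∆IE, and 9 of its 10 genes passed the study threshold, all higher. For 10 markers of enteric neurons the sums were 119 to 160 CPM and 200 to 254 CPM, with 7 of 10 higher, and for 7 adipocyte markers 25.5 to 34.1 CPM and 52.2 to 115 CPM, with 3 of the 6 tested higher. Markers of enteric glia had 4 of 6 higher. Their sums overlapped (197 to 691 and 296 to 410 CPM), but 86.9% to 98.1% of each sum was Erbb3, which epithelium also expresses, and the other 5 summed to 13.3 to 17.8 CPM in NSD2fl/fl and 24.8 to 38.9 CPM in NSD2∆IE, without overlap. The 12 fibroblast markers summed to 1670 to 2026 CPM in NSD2fl/fl and 1813 to 2014 CPM in NSD2∆IE. Past the study threshold, 4 of 12 were higher (Lum, Dpt, Dcn and Cd34). Of the 12 genes, 6 had a fitted log2 fold change above 0, with a median of 0.0012. The fibroblast sums overlapped, but without Col3a1, the most abundant of the 12, they were 1225 to 1394 and 1424 to 1598 CPM and did not overlap. The 8 telocyte markers summed to 142 to 191 and 164 to 183 CPM, and 0 of 8 passed.

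Epithelial markers summed to 13330 to 22040 CPM in NSD2fl/fl and 12800 to 14500 CPM in NSD2∆IE, with 1 of 10 lower (Elf3). Of the 10 genes, 1 had a fitted log2 fold change above 0, where 43.7% of all genes did, and the median was -0.31. The groups did not overlap for 3 of the 10, all lower, against 7.28% of all genes lower. Of the other lists, 1 of 3 markers of interstitial cells of Cajal, 2 of 10 endothelial, 0 of 7 leukocyte, 0 of 4 mesothelial and 0 of 7 posterior Hox genes passed, all of those that passed being higher. Over all genes tested the share that passed higher was 8.05%. Without its most abundant gene, Pecam1, the endothelial sum was also higher in every NSD2∆IE library (211.6 to 231 CPM, against 179 to 210.5 CPM). Cell types of the gut wall were thus present in every library, but these lists do not mark the colon, and the posterior Hox genes of the distal hindgut were low in 3 libraries. No marker of these lists was under 0.1 CPM in all 6 libraries. In whole tissue, fewer cells of a type and less RNA per cell cannot be told apart.

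Set against these sums, the higher niche genes gave different pictures. Per 1000 CPM of fibroblast markers, Wnt2b had 12.01, 11.2 and 8.23 CPM in NSD2fl/fl and 18.4, 17.2 and 15.1 CPM in NSD2∆IE, so the groups still did not overlap, with a ratio of means of 1.61. Rspo3 and Rspo2 also stayed apart on this scale, with ratios of 1.56 and 2.79. The fibroblast sum used here includes Col3a1, without which the sum itself had a ratio of means of 1.17. Per 1000 CPM of smooth muscle markers, all 3 genes overlapped, with ratios of 0.632 for Wnt2b, 0.657 for Rspo3 and 1.05 for Rspo2. On this scale Wnt2b had 5.95, 12.9 and 3.72 CPM in NSD2fl/fl and 6.48, 5.06 and 2.77 CPM in NSD2∆IE. The highest value of each of the 3 genes was in NSD2fl/fl replicate 2, whose marker sum was the lowest (1452 CPM). The ratios of means therefore rest largely on that library. Relative to the enteric neuron markers the ratio was 1.02 for Wnt2b and 0.99 for Rspo3, again with overlap, whereas Rspo2 was at 1.75 without overlap. Relative to the epithelial markers the groups stayed apart for Wnt2b, Rspo3 and Rspo2, with ratios of 1.96, 1.88 and 3.33. The part of muscle, nerve and fat tissue in the level of these genes was not tested.

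**Figure D4:**
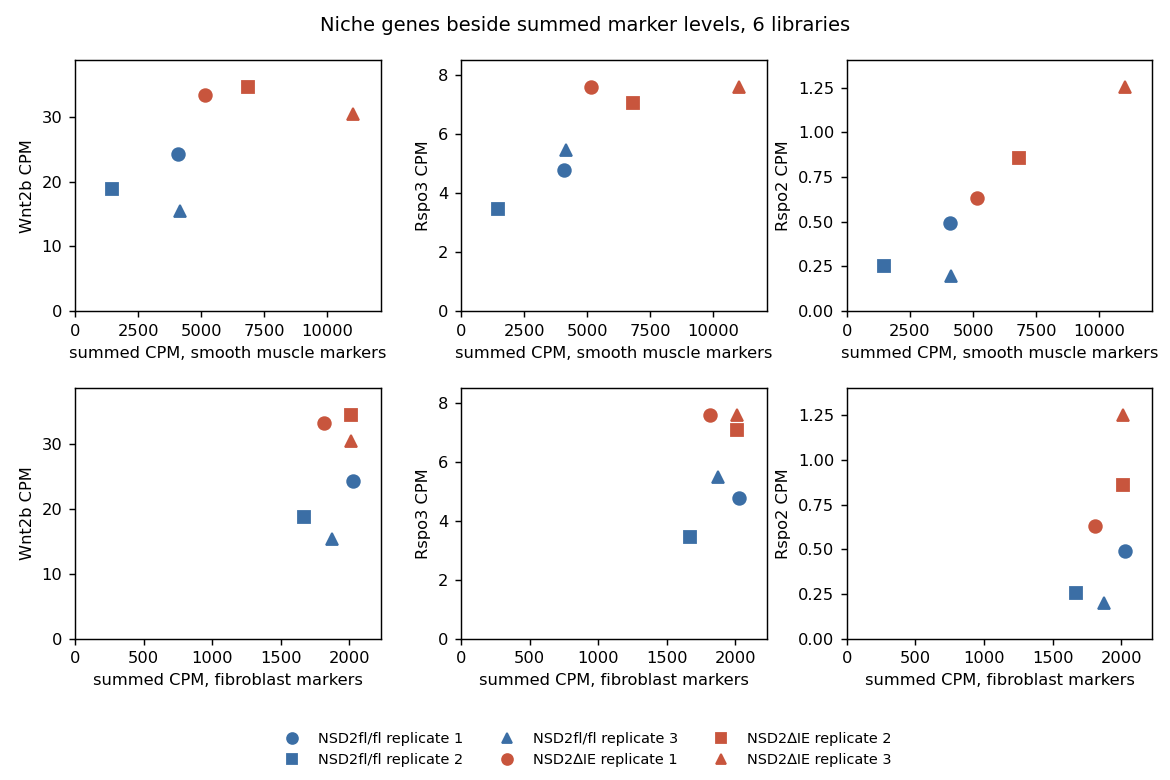
CPM of Wnt2b, Rspo3 and Rspo2 in each library against the summed CPM of 10 smooth muscle markers (top) and of 12 fibroblast markers (bottom), all axes linear from 0. The 3 NSD2∆IE libraries lie to the right of the 3 NSD2fl/fl libraries for smooth muscle, whereas the fibroblast sums of the groups overlap (they do not without Col3a1).

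Other genes of the WNT and BMP pathways were described by lists, with the same background shares of 8.05% higher and 2.21% lower. Of 18 other Wnt and R-spondin ligand genes, 15 were in the files and 7 were tested. Only Wnt11 passed the study threshold, higher, with 0.393 to 0.727 CPM in NSD2fl/fl and 0.732 to 1.64 CPM in NSD2∆IE. The nearest libraries of the groups had 28 and 29 counts, and no gene of the list passed higher with the replicate block, with log2(FPKM + 1), or without NSD2fl/fl replicate 2 or 3 or NSD2∆IE replicate 2 or 3. Rspo4, the remaining R-spondin, had at most 1 count in a library. Of the secreted Wnt antagonists, 4 of 9 tested were higher and 0 lower (median log2 fold change 0.42), and 2 were higher without NSD2fl/fl replicate 3 or without NSD2∆IE replicate 3. Sfrp5, a secreted frizzled-related protein gene, differed by 1.33 ± 0.337 (SE) on the log2 scale (adjusted p = 0.303). Sfrp1 differed by 0.51 ± 0.151 (SE, adjusted p = 0.323), with 41.1 to 57.8 CPM in NSD2fl/fl and 62.6 to 74.3 CPM in NSD2∆IE.

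Among 19 tested receptor genes of WNT and R-spondin, 3 were higher and 0 lower, with Fzd2 (log2 fold change 0.92, SE 0.220) and Ror2, a receptor for WNT5A (0.66, SE 0.194), having the smallest p. Up to 2 receptor genes were lower in 7 of the alternative fits. The Wnt target genes of the crypt epithelium, which include Axin2, Lgr5 and Ascl2, had a median log2 fold change of 0.0029 over 13 tested genes. Nkd1, a feedback inhibitor of the pathway, was the 1 gene past the threshold (0.90, SE 0.269), against 2 higher and 1 lower with the principal component side as a covariate. Lgr5, Rnf43, Znrf3 and Notum belong to more than one of these lists.

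On the BMP side, 11 of 11 other secreted antagonists had a fitted log2 fold change above 0, where 43.7% of all genes did (65% with library totals alone). Their median was 0.46, and 4 passed the study threshold, or 2 without NSD2∆IE replicate 2. Nbl1, which encodes a secreted antagonist of the same kind, differed by 0.58 ± 0.170 (SE) on the log2 scale (adjusted p = 0.317). None of 6 other BMP ligands, 11 receptors and SMADs and 8 BMP target genes (Id1, Id2, Id3 and others) passed the threshold in either direction, with median log2 fold changes of -0.23, 0.0091 and 0.011. In some alternative fits genes of these lists did pass. Without NSD2∆IE replicate 1 these were 2 ligands higher, 1 ligand lower and 1 gene of the receptors and SMADs higher. In the hedgehog and FOXF axis, through which epithelial hedgehog signals reach the gut mesenchyme, 4 of 11 were higher and 0 lower (median 0.49). The count was 1 without NSD2fl/fl replicate 3 or without NSD2∆IE replicate 3 and 2 without NSD2∆IE replicate 2. Foxf1 differed by 0.62 ± 0.132 (SE, adjusted p = 0.302) and Gli3 by 1.20 ± 0.398 (SE, adjusted p = 0.359). No gene of these lists had an adjusted p under 0.05.

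**Figure D5:**
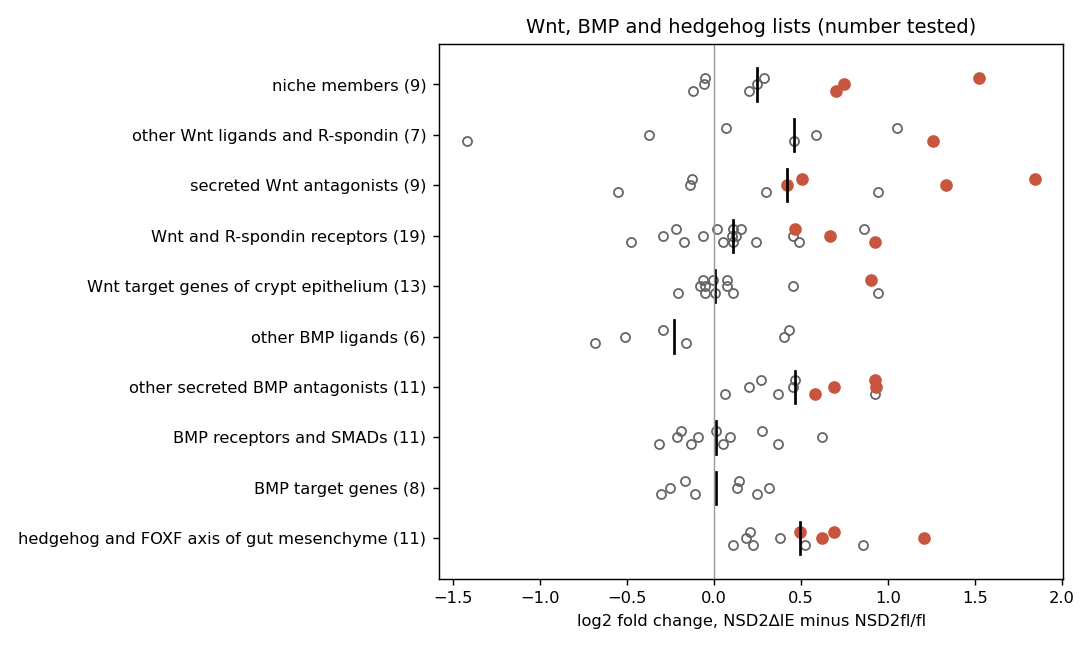
Log2 fold change (NSD2∆IE minus NSD2fl/fl) of every tested gene in the niche set and in each pathway list, with the number tested in brackets, filled points for genes past the study threshold and a black line at the median. All filled points are above 0, and the lists of BMP ligands, BMP receptors and SMADs, and BMP targets have none.

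Promoter sequence was matched for 5 of the 9 genes (Rspo1, Wnt2b, Bmp4, Bmp5 and Grem1) from RefSeq, GRCm38.p6. They are shown in 4 cases, for the gene with the smallest p, for the antagonist and ligand of the ratio above, and for the gene with the most even level. Each runs 5′ to 3′ up to the base before the annotated start (that of GENCODE for Wnt2b and Bmp5), and capitals mark the palindrome GGCGCC, a GC element bound by SMAD1 and SMAD5, or CACCTG (read as CAGGTG on the other strand), an E-box. The printed stretches of Wnt2b and Bmp5 hold neither. For Wnt2b (chr3:104961922-104961959, minus strand) only 38 bases are given, because GENCODE places its start 212 bases further upstream than RefSeq. The others are Grem1 (chr2:113758649-113758898, minus strand), Bmp4 (chr14:46390670-46390919, minus strand) and Bmp5 (chr9:75775115-75775363, plus strand).
Wnt2b: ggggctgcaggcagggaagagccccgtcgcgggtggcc
Grem1: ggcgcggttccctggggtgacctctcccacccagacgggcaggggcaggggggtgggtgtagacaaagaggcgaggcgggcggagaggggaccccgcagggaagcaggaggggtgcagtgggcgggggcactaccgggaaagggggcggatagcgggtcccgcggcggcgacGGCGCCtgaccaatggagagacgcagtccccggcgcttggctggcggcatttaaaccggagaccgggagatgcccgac
Bmp4: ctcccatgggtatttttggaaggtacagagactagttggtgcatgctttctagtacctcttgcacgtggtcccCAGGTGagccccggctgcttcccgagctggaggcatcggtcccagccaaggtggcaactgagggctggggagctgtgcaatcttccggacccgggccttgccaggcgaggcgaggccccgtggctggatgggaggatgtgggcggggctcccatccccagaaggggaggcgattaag
Bmp5: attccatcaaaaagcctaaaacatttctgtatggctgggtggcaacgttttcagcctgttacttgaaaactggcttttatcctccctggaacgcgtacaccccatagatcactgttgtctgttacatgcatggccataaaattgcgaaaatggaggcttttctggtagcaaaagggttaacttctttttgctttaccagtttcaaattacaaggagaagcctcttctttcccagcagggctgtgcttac

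The 5 windows of 250 bases differed in base composition. That of Wnt2b had 80.8% G and C and 36 CpG sites, that of Grem1 72.0% and 24, that of Rspo1 66.8% and 22 and that of Bmp4 63.2% and 11. Bmp5 stood apart with 42.8% and 4 CpG sites. The medians over 32851 promoters were 52.4% and 6. The GC element was present in the windows of Rspo1, Wnt2b and Grem1, and in 9.59% of all promoters. The E-box was present in those of Wnt2b and Bmp4, and in 17.2% of all. Neither the forkhead core GTAAACA (3.17% of all promoters), the TCF and LEF site CTTTGAA (4.46%) nor the TATA box TATAAA (12.4%) was found in any of the 5 windows on either strand. All matches in the Wnt2b window lay inside the GENCODE span of the gene. The match in the Rspo1 window began 9 bases before the GENCODE start (chr4:124986430). It lay inside the RefSeq span of Rspo1, which begins at 124986401. The shares over all promoters were not matched for base composition.

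Limits of scaling and counting bear on all values. When TMM factors were left out, so that only library totals scaled the counts, the log2 fold change at the median over all genes went from -0.041 to 0.086 and the genes past the study threshold from 1316 higher and 361 lower to 1717 higher and 142 lower. Whether reads were counted by strand is not given in the sources used here, and the exons of Bmp5, Rspo3, Wnt5a and Bmp4 share 1878, 404, 358 and 89 bases with a gene on the opposite strand in GENCODE.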

How the data were processed

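RNA sequencing of mouse colon gave 6 libraries, 3 per genotype, grouped and numbered by the labels. Per the file headers the authors deposited read counts, as whole numbers under gene symbols, 1 table per library, and the authors also deposited FPKM values, which implied 1 length per gene in all libraries (to within 0.0783 bases over 17863 genes). The processing notes of the submitters name fastp, HISAT2, HTSeq, R 3.2.0 and mm10, without roles. The annotation, the strand setting and filters are not given in the sources used here. The labels do not say more of the animals behind the libraries, so p-values measure the spread between these samples.

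The count test was that of edgeR 4.0.16, run in R 4.3.3 (filterByExpr, TMM factors, glmQLFit and glmQLFTest, two-sided, no covariates), with Benjamini-Hochberg adjustment over 16347 genes. Each SE was derived from the fitted log2 difference and its F statistic (absolute difference over root F). CPM used TMM-scaled totals, and profiles used log2 CPM with a prior count of 2. The Grem1 to Bmp4 ratio was taken after adding 0.5 to each count. Depth was alike in all libraries, floors of 3 counts cover counting error only, and the common dispersion was 0.0967. The libraries of each pair differed beyond sampling noise. Alternatives were RLE, upper-quartile and no factors, DESeq2 1.42.0, limma-voom (limma 3.58.1), no filter, log2(FPKM + 1) and log2(FPKM + 0.1) in limma, the replicate number or the principal component side as covariates, and leaving out each library. Marker sums without the most abundant gene were added after seeing the data, as was the GENCODE length.

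The members, gene lists, tests and alternatives were chosen with earlier results of these data known. Named genes were the 9 members, the label check genes, from each pathway list the 2 genes of smallest p past the study threshold (an adjusted p under 0.05 would have added others), and for each member the 2 genes of most similar profile with an average log2 CPM of at least 1. Wnt target, receptor and marker genes named as examples or beside a count were added to these after their values were seen. Gene coordinates are from GENCODE M21 and promoters from RefSeq. A gene that this rule names is not reported here.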

Additional observations from a re-analysis of the deposited data

How the results depend on the processing

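Besides the reported fit, 16 others were made. The log2 fold changes of Wnt2b (0.61 to 0.94), Rspo3 (0.53 to 0.85), Rspo2 (0.09 to 2.00), Bmp4 (0.10 to 0.37), Grem1 (0.014 to 0.46) and Foxl1 (0.10 to 0.42) kept their direction in all 16. The number of niche genes with an adjusted p under 0.05 was 1 with DESeq2 and 0 in the other fits, and the number past the study threshold was 2 or 3 higher and 0 lower, also at a fold change over 1.5. The unadjusted p of Rspo2 was under 0.05 in 12 of the 16, and log2(FPKM + 1), in which the pseudocount exceeds its level, gave its lowest log2 fold change. Rspo1, Wnt5a and Bmp5 reversed. Rspo1 was at 0.031 with library totals alone, 0.88 with limma-voom, 0.014 with log2(FPKM + 1), 0.22 with log2(FPKM + 0.1) and 0.27 with the replicate block, and from -0.60 to 1.40 when a library was left out. Wnt5a was at 0.077 with library totals alone, 0.018 under upper-quartile scaling, 0.035 with limma-voom, 0.058 with log2(FPKM + 1) and 0.11 with log2(FPKM + 0.1), and from -0.24 to 0.24 when a library was left out. Bmp5 was at 0.073 with library totals alone, 0.014 under upper-quartile scaling, 0.075 with log2(FPKM + 1) and 0.084 with log2(FPKM + 0.1), and from -0.15 to 0.10 when a library was left out. The difference in the log2 ratio of Grem1 to Bmp4 ranged from -0.28 to 0.35 when a library was left out. The causes were not tested. The counts of the pathway lists and the posterior Hox list moved by over 1.5 times, or to or from 0, in 47 of 320 comparisons.

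With the replicate number as a block, Wnt2b was at 0.77, Rspo3 at 0.72 and Rspo2 at 1.54, and 3 niche genes were past the study threshold. Libraries of the same number had correlations of 0.501, 0.643 and -0.166 between their deviations from the group means, and the numbers were not taken as pairs.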
